A study of Mus musculus with 12 samples.

Results

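The CpG cytosines at the annotated start of Stag1 were a set of 17 methylated positions on mouse chromosome 9, measured in parental and Tet2-depleted embryonic stem cells. They were chosen by position alone, as the CpG cytosines of chr9:100498295-100498720 (mm9) that lay within 0.5 kb past the first annotated start of the gene and were covered by 10 or more read-outs in every one of the 12 libraries. They were 17 of the 384 CpG cytosines, and of the 2428 cytosines in all contexts, that reached this coverage over the 14 targeted loci, and no CpG cytosine of the region fell under it. The study had picked most of these loci for differential methylation between the genotypes in earlier antibody-based maps, and the rest for showing none. Shares over the 384 CpG cytosines therefore describe a selected panel. Because a CpG carries a cytosine on each strand, the 17 cytosines belonged to 11 CpG sites, 6 of them measured on both strands.

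v6.5 is a mouse embryonic stem cell line, and Tet2kd cells are v6.5 cells that stably carry a short hairpin RNA against Tet2. The knockdown cells were made by electroporation of a pSUPER-puro vector, selected with puromycin on feeder cells and taken from picked clones, so that the genotypes also differed in the vector, the selection and the cloning. Which replicate came from which clone was not given, and the wild-type libraries carry titles that also read knock-down although their genotype label and cell source say parental. For each genotype 3 biological replicates were measured, and the DNA of every replicate was divided between bisulfite sequencing (BS-seq) and oxidative bisulfite sequencing (oxBS-seq), giving 4 groups of 3 libraries.

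Methylated cytosine (5mC) in CpG dinucleotides is written by DNA methyltransferases, and TET enzymes, of which Tet2 is one, oxidise it to hydroxymethylcytosine (5hmC) on a path that can end with unmodified cytosine. Bisulfite turns plain cytosine into a base read as T but leaves 5mC and 5hmC as C, whereas a prior oxidation step makes 5hmC read as T as well. The C share, the percent of read-outs of a cytosine that were C, therefore stands for 5mC plus 5hmC in BS-seq and mainly for 5mC in oxBS-seq. Stag1 encodes a subunit of cohesin, the ring-shaped complex that holds sister chromatids together and shapes chromatin loops. CpG-dense promoters of such broadly expressed genes are usually unmethylated, while CpG-poor sequence in gene bodies is usually methylated.

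The annotation placed these positions far upstream of most annotated starts of the gene. Stag1 (ENSMUSG00000037286.8) runs on the plus strand from 100498217 to 100858964, and of its 17 annotated transcripts only ENSMUST00000124487.1 starts at the first base. The next annotated start lay 45650 bp further downstream. The first 500 bp after the upstream start held 12 CpG sites at a GC content of 52.0%, with an observed-to-expected CpG ratio of 0.355, against 70 CpG sites, 74.8% and 1.01 in the 500 bp after the downstream start and a ratio of 0.194 over chromosome 9. Exon 1 of the upstream transcript, a non-coding 5' UTR exon, ends at 100498528. It held 11 of the 17 cytosines, at 6 sites, and the remaining 6 cytosines, at 5 sites from +331 onwards, lay in intron 1, so that the set was only in part a 5' UTR set. Gene expression was not analysed here, so neither the level of Tet2 nor the use of this start was checked. The study assessed the knockdown by quantitative PCR and western blot.

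Positions are given below as the distance in bases from that first annotated start, with the strand. Watson is the strand of the gene and Crick the opposite one. The sequences that follow hold the CpGs that mark the profile, on the Watson strand of mm9 with each measured CpG in capitals. They are the site with the lowest C share and nearest to the start, the pair at +198 and +204, and the site that rose on both strands in Tet2kd. The others are the pair in intron 1 past the end of the exon and the most distal pair, which had the highest C share.
+149 (chr9:100498356-100498377): tggttacctaCGgtgtcctctg
+198 and +204 (chr9:100498405-100498432): agccatcttcCGaataCGcttgggagga
+233 (chr9:100498440-100498461): accactggatCGtgagagctgt
+359 and +372 (chr9:100498569-100498597): gttctgcCGtatcacaggtcCGtggcagt
+459 and +474 (chr9:100498670-100498698): gactcaCGcctataatcccagCGccttct
The last pair stood in sequence that recurs on chromosome 9. Of the 12-base words within 30 bases of the site at +474, the median word occurred 62.5 times on chromosome 9 and the most frequent 662 times, against medians between 11.5 and 43.0 at the other 10 sites. The most frequent word occurred 503 times near the site at +149 and 403 times near that at +459, and at most 104 times at the remaining sites. No repeat annotation was used, and whether reads from other copies reached any of these positions was not tested.

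The region was read from separate amplicons for each strand. Crick read-outs reached from +78 to +357 and Watson read-outs from +158 to +503, which left 7 cytosines measured on Crick and 10 on Watson. The coverage of a member cytosine in a library lay between 118 and 14667 read-outs, with a median of 5180.5. Wilson 95% intervals of a single C share had half-widths with medians between 1.11 and 1.47 percentage points in the 4 groups, and up to 8.26 points at Watson +331, the only member with under 1000 read-outs in some library. These intervals cover counting error only, since PCR read-outs without molecular identifiers are not independent molecules. The 148 non-CpG cytosines of the same region had a mean C share between 0.300% and 0.460% in the 12 libraries, which bounds the background of unconverted cytosine there.

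The CpGs were methylated throughout. In v6.5 BS-seq the mean C share over the 17 cytosines was 71.7%, 72.2% and 72.7% in the 3 replicates (72.2% ± 0.53, SD, n = 3), and the means of single cytosines ran from 50.6% to 89.6% with a median of 73.5%. Crick +150, the cytosine nearest to the start, was the lowest, with C shares of 49.5%, 51.2% and 51.0%. Watson +474, the farthest, was the highest, with 88.8%, 89.7% and 90.2%. These replicate ranges lay far apart, and both cytosines kept their place as the lowest and the highest of the 17 in all 4 groups.

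**Figure D1:**
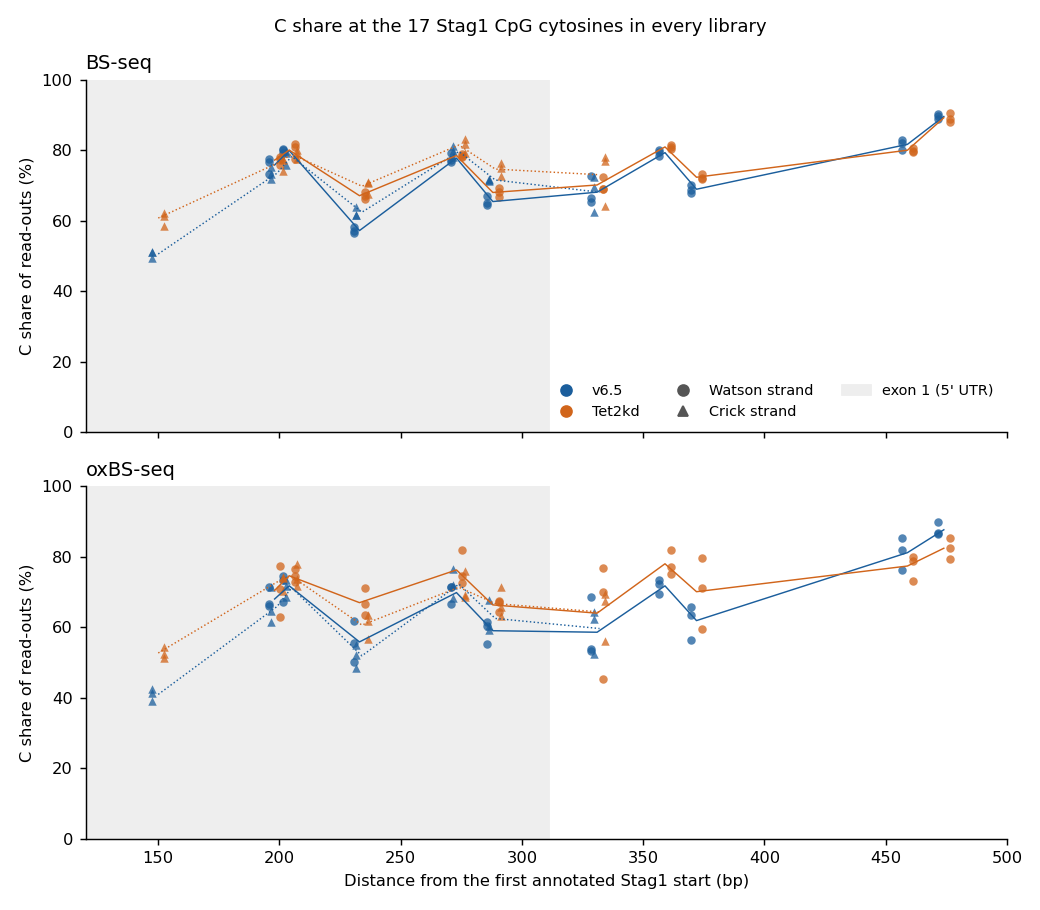
C share (percent of read-outs) of the 17 Stag1 CpG cytosines against the distance in bp from the first annotated start, in BS-seq (upper panel) and oxBS-seq (lower panel). Each point is a library (v6.5 blue, Tet2kd orange, offset sideways for sight; Watson circles, Crick triangles), lines join the means of 3 replicates (solid for Watson, dotted for Crick) and grey marks exon 1. The lowest cytosine is at +150, a dip lies at +233 and +234, and the highest values are at +474.

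Between these ends the profile did not climb steadily but alternated. In v6.5 BS-seq the pair at +198 and +204 stood at 75.8% ± 2.22 and 79.9% ± 0.58 on Watson (SD, n = 3), the site at +233 dropped to 57.2% ± 0.94 on Watson and 62.4% ± 1.36 on Crick (+234), and the site at +273 returned to 77.8% ± 1.33. Watson +288 had 65.4% ± 1.30, Watson +359 had 79.3% ± 0.77 and Watson +372, only 13 bases further, had 68.9% ± 1.21. Neighbouring CpGs a few bases apart could thus differ by about 10 points or more with replicate ranges that did not overlap.
When the 17 cytosines were ordered by their mean in v6.5 BS-seq, 5 of the 16 neighbouring pairs in that order had replicate ranges that did not overlap, and the other 11 pairs could not be told apart by their replicates. The intermediate ranks are therefore uncertain, while Crick +150, Watson +233 and Crick +234 were each separate from the next higher cytosine and Watson +474 from the next lower. In oxBS-seq, with its wider spread, only 2 of 16 pairs in v6.5 and 1 of 16 in Tet2kd were separate, and in Tet2kd BS-seq 2 of 16.

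The strands of a CpG read alike but not identically. Over the 6 sites measured on both strands, Watson and Crick differed by an average of 4.13 points in BS-seq of v6.5 and 3.63 points in BS-seq of Tet2kd (mean absolute difference), and in oxBS-seq by 4.54 and 6.96 points. The site at +288 was lower on Watson in all 6 BS-seq libraries, the Watson minus Crick difference being -4.67, -6.15 and -7.52 points in the v6.5 replicates and -5.82, -5.86 and -8.24 points in Tet2kd. The site at +233 was also lower on Watson in all 6 BS-seq libraries, with differences from -5.74 to -1.31 points. In oxBS-seq this did not hold. There Watson was higher than Crick at +233 in all 6 libraries, by 0.59 to 14.43 points, and at +288 the sign was mixed (-7.15 to 4.43 points). As the strands were amplified separately, a strand difference and a difference between amplicons cannot be told apart.

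In Tet2kd the C share was higher at 3 cytosines of the 5' part of the region, at +150 and on both strands of the site at +233, and differed by no more than 5 points in BS-seq elsewhere. In BS-seq the mean over the 17 cytosines was 73.7%, 75.9% and 76.0% in the Tet2kd replicates (75.2% ± 1.25, SD, n = 3), 2.98 points above v6.5, and Tet2kd was higher in all 9 pairings of replicates across the genotypes. The exact two-sided permutation test over the 20 assignments of the 6 samples gave p = 0.1, the smallest p that 3 against 3 samples can give, so the design cannot reach the 0.05 threshold for this value. By edgeR's quasi-likelihood test, 3 of the 17 cytosines were called at an adjusted p under 0.05, all higher in Tet2kd, against 58.9% of the 384 CpG cytosines of the series called in either direction. Those 3 were also the 3 with the lowest C share in v6.5. In a fit over cytosines of every context none of the 17 was called, and 93 of the 384 CpG cytosines were.

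Watson +233 had the smallest adjusted p. The v6.5 libraries gave BS-seq C shares of 57.0%, 56.4% and 58.2% and the Tet2kd libraries 66.2%, 67.0% and 68.1%, a difference of 9.90 points (SE 0.77) with a log2 odds ratio of 0.61 (edgeR adjusted p = 0.00192). The replicate groups were far apart and tight.
Crick +234, the cytosine opposite on the same site, went from 61.5%, 61.7% and 64.0% to 67.5%, 71.1% and 70.7%, a rise of 7.38 points (SE 1.39, log2 odds ratio 0.48, edgeR adjusted p = 0.015). Every Tet2kd library was above every v6.5 library. This call was lost when v6.5 replicate 2 was left out, which gave 2 called cytosines in place of 3 (52.3% of the 384).
Crick +150 rose most, from the values given above to 58.5%, 61.5% and 62.3%, by 10.19 points (SE 1.27, log2 odds ratio 0.60, edgeR adjusted p = 0.00419). Its lowest Tet2kd library stood more than 7 points above its highest v6.5 library.

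The remaining 14 cytosines did not pass the test in BS-seq. Of these, 3 had replicate ranges that did not overlap, with Tet2kd higher: Crick +289 by 3.11 points, Watson +372 by 3.40 points and Watson +359 by 1.62 points. With the called ones, 6 of the 17 were separate in this direction, where 56.2% of all CpG cytosines were. The pair at +198 and +204 differed by between 0.12 and 2.81 points on either strand, and its ranges overlapped. The only negative differences were those of the most distal pair, -1.66 points at Watson +459 and -0.36 at Watson +474, again with overlapping ranges. Watson +459 had 82.1%, 82.8% and 80.1% in the v6.5 libraries, against 80.7%, 79.7% and 79.6% in those of Tet2kd. The median difference over the 17 cytosines was 2.05 points, with a range from -1.66 to 10.19, and over all 384 CpG cytosines it was 5.94.

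**Figure D2:**
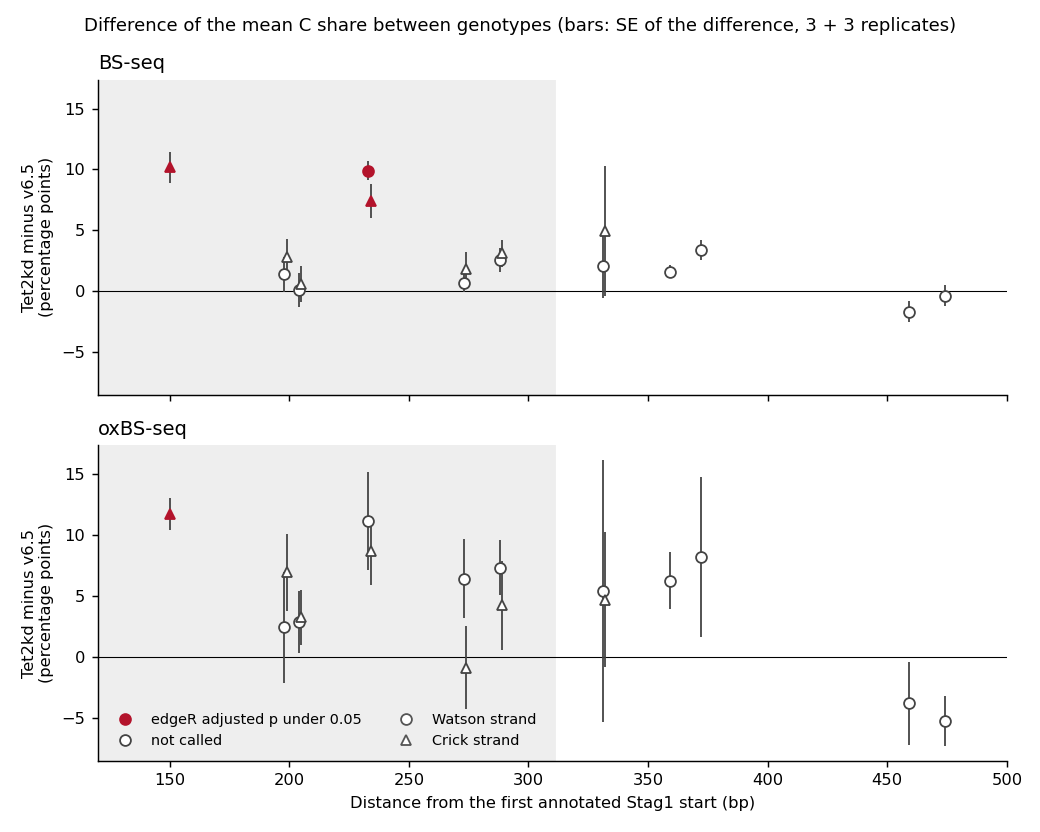
Difference of the mean C share, Tet2kd minus v6.5, in percentage points against the distance in bp from the first annotated start, for BS-seq (upper panel) and oxBS-seq (lower panel), with bars of 1 SE of the difference (3 and 3 replicates), circles for Watson, triangles for Crick and grey for exon 1. Red marks an edgeR adjusted p under 0.05. The largest differences are at +150, +233 and +234, and the pair at +459 and +474 lies below 0 in both assays.

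oxBS-seq gave a difference of the same sign with a larger spread. The v6.5 replicates had means over the 17 cytosines of 63.2%, 66.5% and 66.3% (65.3% ± 1.88), and the Tet2kd replicates 71.5%, 67.9% and 70.6% (70.0% ± 1.86, SD, n = 3), a difference of 4.69 points (exact two-sided permutation test, p = 0.1, again the smallest possible), with Tet2kd higher in all 9 pairs. Crick +150 was the only cytosine called, against 36.2% of the 384 CpG cytosines. Its C share rose from 41.4%, 42.4% and 39.2% to 51.3%, 52.3% and 54.5%, by 11.75 points (SE 1.34, log2 odds ratio 0.68, edgeR adjusted p = 0.0396), again with no overlap. That call depended on the fit and on single libraries. It was absent, with 0 of 17 called, with limma (35.7% of the 384), with a replicate block (31.0%) and at a threshold of 0.01 (18.2%). The same held in the fit over every context (0.0%). It also held in the edgeR fits without v6.5 replicate 1, 2 or 3 (23.7%, 27.1% and 28.9%) and without Tet2kd replicate 3 (33.6%). Without Tet2kd replicate 2 the single call was Watson +372 instead (35.9%). Without Tet2kd replicate 1 there were 2 calls (37.8%), Crick +150 and Watson +474, the latter lower in Tet2kd.
Watson +233 had oxBS-seq C shares of 50.2%, 55.7% and 61.8% in v6.5, against 71.1%, 66.5% and 63.5% in Tet2kd, a difference of 11.15 points (SE 4.02). Its ranges did not overlap, but it missed the threshold (edgeR adjusted p = 0.0627). In total 6 of the 17 cytosines had non-overlapping ranges with Tet2kd higher, where 49.2% of all CpG cytosines did, and 1 had them with Tet2kd lower, where 1.3% did. That cytosine was Watson +474, with 86.4%, 86.7% and 90.0% in the v6.5 libraries, against 85.5%, 82.4% and 79.5% in those of Tet2kd, a difference of -5.25 points (SE 2.09, edgeR adjusted p = 0.0927).

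The difference along the region was examined by contrasting the 8 distal cytosines with the 9 nearer to the start. In BS-seq the distal set exceeded the proximal set by 4.62, 3.30 and 2.64 points in the v6.5 replicates and by 1.18, 2.34 and 1.27 points in those of Tet2kd. The v6.5 values were all above the Tet2kd values, a difference of -1.92 points between the genotypes (exact two-sided permutation test, p = 0.1, the smallest possible). In oxBS-seq the same contrast gave 4.19, 5.43 and 4.51 points for v6.5, against 4.14, -0.11 and 2.70 points for Tet2kd, a difference of -2.47 points (exact permutation test, p = 0.1). Both differences were smaller in size without the last pair, and only that of oxBS-seq changed sign. Without +459 and +474 they became -0.93 points in BS-seq and 0.17 points in oxBS-seq (exact permutation tests, p = 0.4 and p = 1.0).
By annotation, the 11 cytosines of exon 1 averaged 70.2% ± 0.72 in v6.5 BS-seq and 73.9% ± 1.16 in Tet2kd BS-seq (SD, n = 3; Tet2kd higher in 9 of 9 pairs), and the 6 of intron 1 averaged 75.9% ± 0.18 and 77.6% ± 1.51 (7 of 9 pairs). The last pair averaged 85.6% ± 0.58 for v6.5 and 84.6% ± 0.44 for Tet2kd, with Tet2kd higher in 0 of 9 pairs. A split at the middle of the covered interval separates the same sets, and with it the intron minus exon contrast differed between genotypes by -2.03 points in BS-seq and -3.25 points in oxBS-seq (exact two-sided permutation tests, p = 0.1 and p = 0.3).

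**Figure D3:**
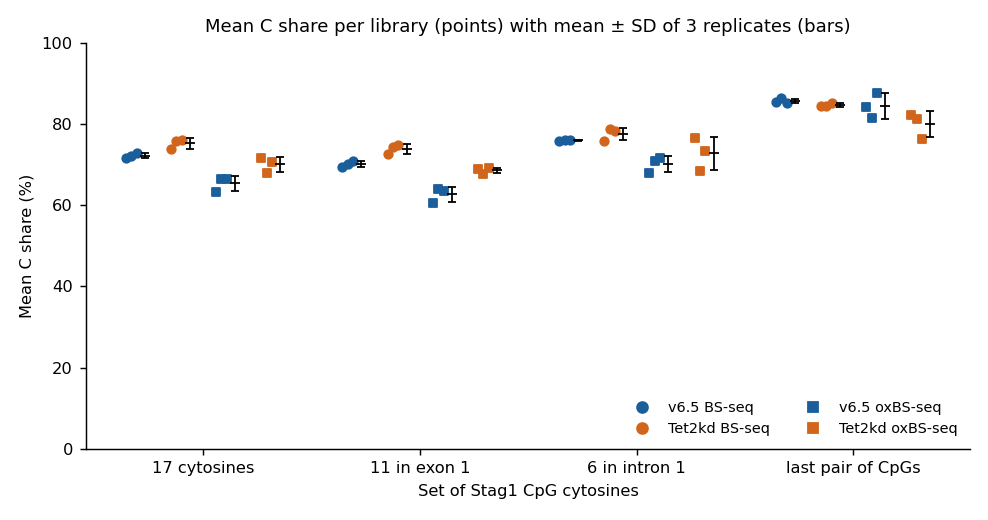
Mean C share (percent) per library over all 17 Stag1 CpG cytosines, the 11 in exon 1, the 6 in intron 1 and the last pair at +459 and +474. Points are libraries (v6.5 blue, Tet2kd orange; BS-seq circles, oxBS-seq squares) and bars the mean ± SD of 3 replicates. The genotypes separate over the 17 cytosines and in exon 1 in both assays, while in the last pair Tet2kd is not above v6.5 in BS-seq.

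BS-seq exceeded oxBS-seq on average at every position. In v6.5 the mean difference between the assays had a median of 7.55 points over the 17 cytosines (0.45 to 10.48) and in Tet2kd of 5.39 points (0.07 to 10.08). Over all 384 CpG cytosines, which include a nearly unmethylated locus, the medians were 2.97 and 1.67 points. Other loci held 169 CpG cytosines with a v6.5 BS-seq level within the range of the Stag1 cytosines. Their medians were 5.0 points in v6.5 and 2.2 points in Tet2kd. Averaged over the 17, the assays differed by 8.52, 5.71 and 6.42 points in the v6.5 cultures and by 2.23, 7.93 and 5.36 points in the Tet2kd cultures. The genotypes overlapped in this quantity, Tet2kd replicate 1 being the lowest of the 6.
The oxidation step was incomplete and uneven. From the spiked-in hydroxymethylated controls, the share of 5hmC that was oxidised was estimated at 77.8%, 47.2% and 74.3% in the v6.5 replicates and 62.5%, 54.5% and 49.2% in the Tet2kd replicates, so that a given 5hmC level produced a difference between the assays of varying size. The control read-outs themselves differed between libraries, the pooled oxBS-seq C share of the 27 hydroxymethylated control cytosines being 19.97%, 45.6% and 23.3% in the v6.5 libraries, against 33.0%, 40.0% and 46.6% in those of Tet2kd. The part of the uneven oxidation in the spread of oxBS-seq, and in its genotype difference, was not tested.

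With the replicate as a block, edgeR called none of the 17 cytosines between the assays at an adjusted p under 0.05, in v6.5 or in Tet2kd, against 4.95% and 1.3% of the 384 CpG cytosines. At an unadjusted p under 0.05 there were 12 of 17 in v6.5 (28.1% of the 384) and 5 of 17 in Tet2kd (46 of the 384). With limma, 0 of the 17 were called at an adjusted p under 0.05 in both genotypes. It also called 0 of the 384, so this count says nothing particular about Stag1. The v6.5 count hinged on which other cytosines shared the fit. With at least 100 read-outs required in every library, 281 CpG cytosines were fitted, 26.3% of them called, and 11 of the 17 were called higher in BS-seq. At a minimum of 1000, 135 were fitted with 30.4% called, and 11 of the 16 Stag1 cytosines that remained were called. Replicate ranges were separate, with BS-seq higher, at 12 of the 17 cytosines in v6.5 (37.0% of all CpG cytosines) and at 6 in Tet2kd (17.2%).

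The largest assay difference in v6.5 was at Crick +234, where BS-seq gave 61.5%, 61.7% and 64.0% and oxBS-seq 48.5%, 55.1% and 52.2%, a difference of 10.48 points in the mean (SD of the paired differences 3.40, n = 3; edgeR adjusted p = 0.0726). All 3 cultures had the higher value in BS-seq. Crick +150 differed by 9.58 points (paired SD 1.97) and, in Tet2kd, by 8.02 points (paired SD 1.02). Both differences had the same sign in all 3 cultures of the genotype.
The site at +233 behaved differently on its strands. In v6.5, BS-seq exceeded oxBS-seq on Watson by 6.79, 0.68 and -3.53 points and on Crick by 13.02, 6.62 and 11.80 points. In Tet2kd the Watson values were -4.90, 0.50 and 4.59 points and the Crick values 10.85, 7.58 and 8.93 points. Crick was larger in 6 of 6 cultures at this site, compared with 3 of 6 at +198, +204 and +331, 5 of 6 at +273 and 4 of 6 at +288. It was singled out after its values were seen and no test was made. At the most distal pair the mean assay difference in v6.5 was 0.45 points at Watson +459 (paired SD 5.95, with cultures on both sides of 0) and 1.87 points at Watson +474 (paired SD 1.52). In Tet2kd it was 2.58 points (paired SD 3.42) and 6.75 points (paired SD 4.26).

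**Figure D4:**
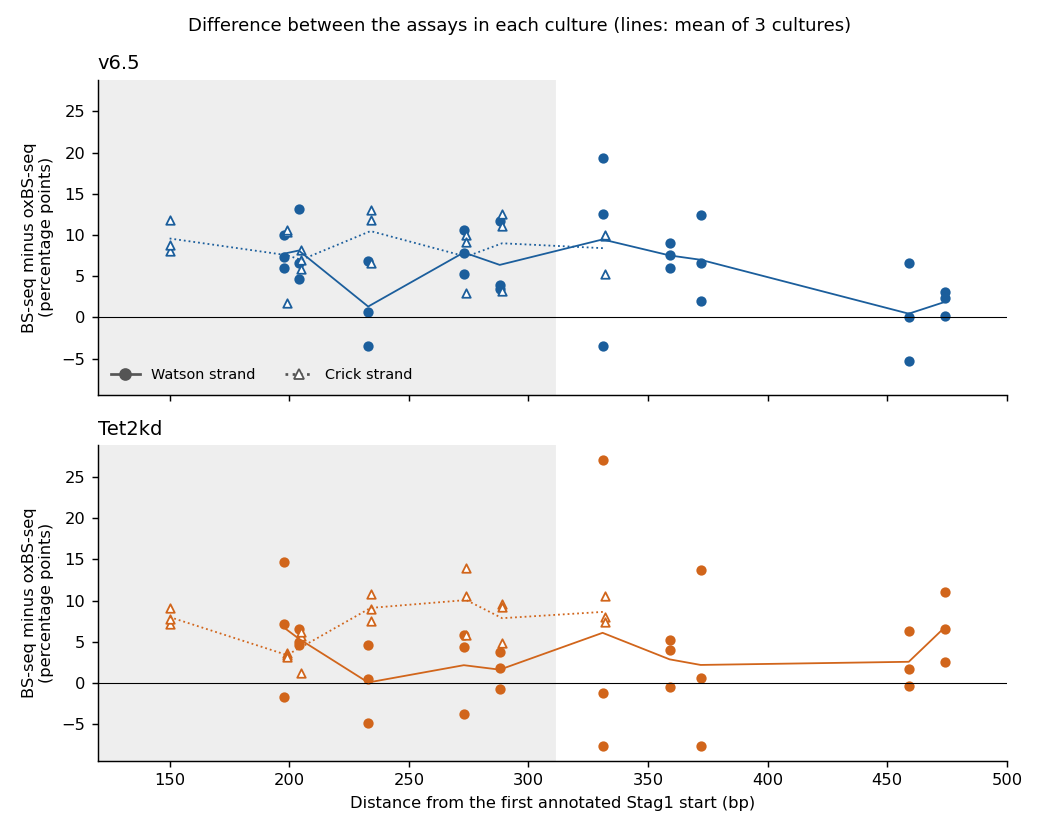
BS-seq minus oxBS-seq C share (percentage points) of each culture at the 17 Stag1 CpG cytosines against the distance in bp from the first annotated start, for v6.5 (upper panel) and Tet2kd (lower panel). Filled circles are Watson, open triangles Crick, lines the means of 3 cultures, grey exon 1. At +233 the Crick values lie above the Watson values, and Watson +331 scatters from -7.64 to 27.1 points in Tet2kd.

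Converted into proportions with the hierarchical model of the study, Lux, which weighs both assays by the conversion, oxidation and error rates of each replicate, the 17 cytosines held on average 61.2%, 59.4% and 63.6% 5mC in v6.5 and 68.4%, 61.7% and 64.8% in Tet2kd. The difference was 3.54 points, with Tet2kd higher in 8 of 9 pairs (exact two-sided permutation test, p = 0.2). Mean 5hmC took the values 10.96%, 13.09% and 9.38% in the v6.5 replicates, against 6.54%, 14.3% and 11.3% in those of Tet2kd, a difference of -0.44 points (exact two-sided permutation test, p = 1.0), and leaving out Tet2kd replicate 1 turned it to 1.89 and leaving out v6.5 replicate 2 to 0.45. The 5hmC level was thus not distinguishable between the genotypes at this spread, in either direction.
Single cytosines varied around these means. The largest positive 5mC differences between genotypes were 10.5 points at Watson +233 and 10.4 points at Crick +150, with 5hmC differences of -0.03 and -0.27 points. At Crick +150 5mC was estimated at 35.8% ± 3.33 in v6.5 and 46.2% ± 1.19 in Tet2kd (SD, n = 3), while 5hmC stood at 14.9% ± 4.05 and 14.7% ± 2.73. Watson +474 had the opposite sign, 86.6% ± 2.98 and 76.5% ± 7.92 for 5mC. Over the 17 cytosines, 14 had a higher mean 5mC in Tet2kd and 9 of these also a lower mean 5hmC, while 3 had neither. Those 9 include Watson +233 and Crick +150, with 5hmC differences of only -0.03 and -0.27 points. The matching shares over the 384 CpG cytosines are not given here, so the tally cannot be read as particular to Stag1.
The Bayes factor, the ratio by which the data favour a difference between genotypes over none, was above 1 at 0 of the 17 cytosines, against 6.77% of the 384. The 17 values ran from 0.0295 at Watson +459 to 0.277 at Watson +331, with a median of 0.141, and the median over the 384 was 0.0943. The cytosines called by edgeR in BS-seq had 0.0415 at Watson +233, 0.259 at Crick +234 and 0.275 at Crick +150. The model thus favoured no difference at each of them, and most strongly at Watson +233, which had the smallest edgeR adjusted p.

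Among the 14 loci Stag1 had a fairly high methylation level and one of the smaller genotype differences. Its mean C share in v6.5 BS-seq ranked 6 of 14, and its mean genotype difference ranked 9 of 14 in both assays. In the share of CpG cytosines called it ranked 10 of 14 in BS-seq (17.6%) and 11 of 14 in oxBS-seq (5.9%). The 169 CpG cytosines of other loci whose v6.5 BS-seq level lay within the range of the Stag1 cytosines had a median genotype difference of 10.5 points in BS-seq and 12.98 in oxBS-seq, against 2.05 and 5.41 points at Stag1. This is a description, since cytosines of a locus share molecules and the difference between loci was not tested. Most of the other loci were picked for a difference between these genotypes, so the ranks and medians do not compare Stag1 with ordinary CpGs.

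**Figure D5:**
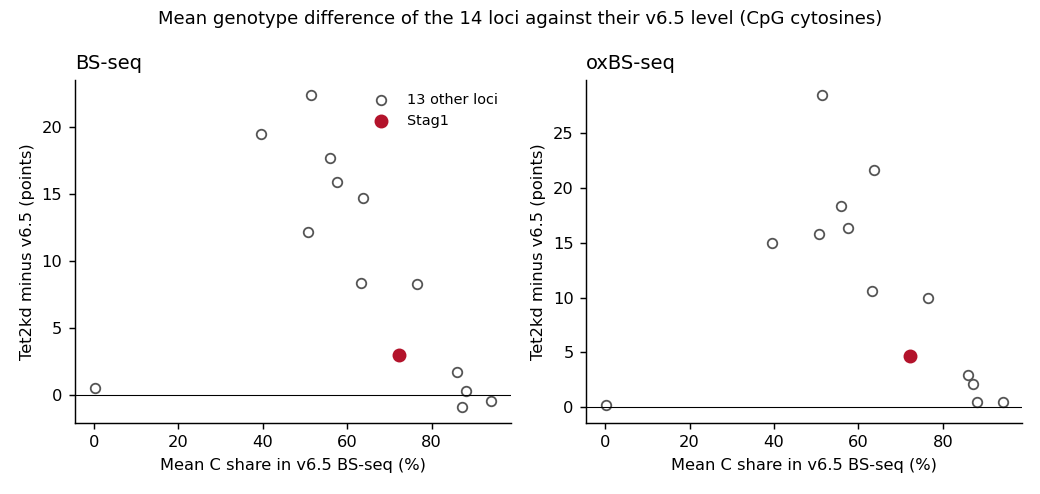
Mean genotype difference (Tet2kd minus v6.5, percentage points) of the CpG cytosines of each of the 14 loci against their mean C share in v6.5 BS-seq (percent), for BS-seq (left) and oxBS-seq (right). Stag1, red, is at 72.2% with differences of 2.98 and 4.69 points, below the loci of intermediate methylation and above those of the highest.

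The spread between replicates was mostly larger than counting alone would give. Over the 17 cytosines the replicate SD was 2.02 points in v6.5 BS-seq and 2.38 in Tet2kd BS-seq, and 4.41 and 6.07 points in oxBS-seq, where counting alone would give between 0.99 and 1.17 points in the 4 groups. The values came closest on the Watson strand in Tet2kd BS-seq, with a replicate SD of 1.26 points against 1.25 from counting. Both are root mean squares over 10 cytosines, and Watson +331 weighs heavily in the counting value. It had only 165, 196 and 427 read-outs in those libraries. The comparison was not made without it, so no trait of the strand can be read from it. On Watson in v6.5 BS-seq the SD was 1.73 against 1.15 points, and on Crick it was 2.36 against 0.71 points in v6.5 BS-seq and 3.39 against 0.43 in Tet2kd BS-seq. How much of this spread lies between cultures and how much in the PCR cannot be told apart. Watson +331, the least covered cytosine, had 76.7%, 45.3% and 70.0% in Tet2kd oxBS-seq. The tests above therefore rest on replicates and not on summed read-outs.
Outside CpG, CpA cytosines of the region had a mean C share of 0.612%, compared with 0.224% at CpC and 0.321% at CpT. The highest was Watson +300, a CpA 12 bases past the CpG at +288, with between 2.69% and 4.75% in the 6 BS-seq libraries and between 0.088% and 4.92% in the 6 oxBS-seq libraries. It overlapped between the genotypes in each assay.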

How the data were processed

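Targeted BS-seq and oxBS-seq libraries were sequenced as PCR amplicons on a MiSeq. According to the submitters' processing notes and the methods, the authors aligned the reads with Bismark 0.7.12 and Bowtie2 to mm9 and lambda phage DNA and extracted read-outs with a minimum of 10, counting overlapping mates once. For every cytosine the authors deposited raw counts, how many read-outs were C and how many T, with no normalization. The percent of C, also deposited, served as a check of those counts. Positions in the files are 0-based, so 1 was added. Bases came from the NCBIM37 sequence (mm9) and genes from GENCODE vM1. Genomic read-outs per library lay between 4505229 and 18096597.

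C shares were averaged over cytosines with equal weight and compared by exact two-sided permutation tests. Single cytosines were tested on C and T counts with edgeR 4.0.16 (quasi-likelihood test with a methylation design, no trend in dispersion, Benjamini-Hochberg over the 384 CpG cytosines, threshold 0.05), without a replicate block between genotypes and with one between assays, where the methods state that DNA was split. limma 3.58.1 on log2 ratios of C to T (0.5 added to both) was an alternative. Experimental parameters were estimated from 88 Watson-strand control cytosines (26 C, 35 5mC and 27 5hmC) by Markov chain Monte Carlo and held at their posterior means. Lux proportions were sampled with a Dirichlet prior of 0.8 and a gamma prior of shape 2 and rate 0.3333 (1000 draws after 1000 warm-up sweeps, 5 sweeps apart), in Python 3.11.15 because Stan was not used here. Bayes factors used the Savage-Dickey ratio. The code was tested on simulated counts. Cytosines with full values are those with the highest and lowest v6.5 BS-seq mean, nearest to and farthest from the start, with the largest genotype difference in each direction and assay, with the largest assay difference in v6.5, and those called. The cytosines, sets and tests were chosen with earlier results of these data known. Alternatives were coverage minimums of 100 and 1000, pooled shares, subtraction of the non-CpG share, the replicate block, Fisher and limma tests, a threshold of 0.01, a fit over all contexts, ideal parameters, the frequency method, other priors, bandwidth and seed, a Bayes factor above 3, another split, and leaving out each replicate. Averaging strands, single strands and leaving out the last pair were added after the data were seen.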

Additional observations from a re-analysis of the deposited data

How the results depend on the processing

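The sign of the genotype difference in the mean C share held under all 15 alternatives in each assay. The values lay between 1.97 and 4.41 points in BS-seq and between 3.61 and 5.92 points in oxBS-seq. Several of these alternatives could not have changed the sign. With Tet2kd higher in all 9 pairs, leaving out 1 replicate cannot reverse it. The replicate block leaves the mean as it is, and the coverage minimum of 100 removed no Stag1 cytosine. The sign of the 5mC difference held under 12 alternatives (1.64 to 5.18 points). Leaving out 1 replicate at a time gave 2.59 to 3.70 points for BS-seq, 3.61 to 5.73 for oxBS-seq, 1.64 to 5.18 for 5mC, -2.21 to 1.89 for 5hmC, and -2.37 to -1.37 and -3.42 to -1.29 for the distal minus proximal difference in BS-seq and oxBS-seq. Without the last pair the oxBS-seq distal minus proximal difference was 0.17, a reversal. The values for 5hmC without v6.5 replicate 2 (0.45) and without Tet2kd replicate 1 (1.89) were reversals too. The cause was not tested.

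The counts of called Stag1 cytosines moved more. In BS-seq between genotypes, the 3 calls became 12 (77.6% of the 384) with Fisher's test on summed counts, which treats read-outs as independent. They became 0 (24.2%) in a fit over cytosines of every context, and 2 to 4 (50.0% to 59.4%) without 1 replicate. In oxBS-seq the single call became 16 (81.8%) with Fisher's test and 2 at a coverage minimum of 100 (50.5% of the 281 tested). It became 0 with limma (35.7%), at a threshold of 0.01 (18.2%) and in the fit over every context (0.0%). Without 1 replicate the count was 0 to 2 (23.7% to 37.8%). Between assays, the counts of 0 became 16 in v6.5 (64.3%) and 15 in Tet2kd (71.4%) with Fisher's test. In v6.5 they became 11 at coverage minimums of 100 (26.3%) and 1000 (30.4%), where fewer CpG cytosines were tested. Without 1 replicate they stayed at 0 in each genotype (at most 0.8% in v6.5 and 2.3% in Tet2kd). The number of Bayes factors above 1 was 0 under all 11 alternatives, and the highest value over them was 0.498. The alternative of a Bayes factor above 3 could give nothing else, since none passed 1. These alternatives were run on the Stag1 cytosines only, so no share over the 384 can be set beside them. Over all 384 CpG cytosines the genotype calls were 226 in BS-seq and 139 in oxBS-seq, with 93 and 0 in the fit over every context.

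No label tied same-numbered replicates of the genotypes beyond their number. Their deviations from the group means correlated, over the 384 CpG cytosines, at 0.179, 0.077 and 0.115 in BS-seq and at 0.093, -0.087 and -0.175 in oxBS-seq. Over the 17 Stag1 cytosines, which share molecules, the correlations were 0.625, -0.089 and 0.834 in BS-seq. In oxBS-seq they were 0.296, -0.126 and -0.671. A link between same-numbered replicates at Stag1 was not tested. With the replicate block, edgeR called 4 of 17 in BS-seq and 0 of 17 in oxBS-seq between genotypes, and 241 and 119 over all CpG cytosines. Without the replicate block it called 0 of 17 between the assays in each genotype. It then called 0 of the 384 as well, so this count is not particular to Stag1. The sign-flip test with the block, whose smallest p is 0.25, left the mean differences at 2.98, 4.69, 3.54 and -0.44 points and the distal minus proximal differences at -1.92 and -2.47 points.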
